A study of Homo sapiens with 4 samples.

Results

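The genes described here are 36 genes of the lysosome and of autophagy: transcription factors that drive lysosomal genes, lysosomal membrane proteins, cathepsins, glycosidases, lipid-handling proteins, autophagy receptors, ATG8 proteins and proteins that start the autophagosome. They were chosen by name from what these genes are known to do, and all 36 were found among the 58735 genes of the expression table. All 36 also passed the filter for comparison, a mean of at least 1 FPKM over the 4 libraries, which kept 14429 genes in all. FPKM counts fragments after division by gene length in kilobases and by library size, so that levels can be set side by side between genes.

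The data were RNA-seq libraries of HCT116 and LOVO, both human colorectal cancer cell lines labelled as wild type, with 1 library for each line grown as adherent cells and 1 for each line grown as spheroids. Adherent cells grew untreated in RPMI-1640 with serum. Spheroids grew in ultralow attachment dishes in serum-free medium with B27, N2, bFGF and EGF, and with oxaliplatin according to the study's methods. The sample labels name no drug and give a treatment of 1 mg/ml, whereas the methods state the drug in micrograms per ml, so the dose is uncertain. Growth form, medium and drug changed together, so their contributions cannot be told apart. With 1 library per condition no value has a replicate error, and within a line no test was made. The libraries held 15483569 to 20429147 reads on genes, and each of the 36 genes had between 131 and 26033 reads in every library, so that the counting error of a log2 ratio was small (the median half-width of the 95% interval was 0.12 in HCT116 and 0.09 in LOVO). These intervals, exact Clopper-Pearson ones, cover counting error only and leave out all variation between cultures.

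The labelled cell type was checked on markers of colon epithelium. In HCT116, 6 of the 10 markers were at 1 FPKM or more in adherent cells and 7 in spheroids, with EPCAM at 85.6 and 79.3 FPKM, CDH1 at 31.1 in both and CDX2 at 3.84 and 3.12. In the libraries labelled LOVO these numbers were 3 and 4, EPCAM was at 0.930 and 1.50 FPKM, CDH1 at 0.117 and 0.00805, and CDX2 at 0 in both. VIL1, CDX1 and LGALS4 were at or near 0 in all 4 libraries, at most 0.0946 FPKM, and so set no line apart. Of 6 fibroblast markers, LUM was at 31.4 and 50.4 FPKM in LOVO against at most 0.0198 in HCT116, and DCN at 10.4 and 9.97 against 0. COL3A1 (0.811 and 5.13 FPKM in LOVO, 0.00720 and 0.358 in HCT116) and PDGFRB (1.57 and 1.17, against 0.0825 and 0.175) were also higher in LOVO. The others did not follow throughout, as COL1A1 was at 5.51 and 15.5 FPKM in HCT116 and at 9.89 and 6.10 in LOVO. COL1A2 was at most at 0.00534 in any library. The keratins KRT8 (189 and 81.7 FPKM) and KRT18 (122 and 98.8) were present in the LOVO libraries. KRT19 was at 14.9 and 4.85 FPKM there, against 808 and 543 in HCT116. Summed over 10 epithelial markers, the levels were 1754 and 1288 FPKM in HCT116 and 327 and 187 in LOVO, and over 6 fibroblast markers 5.60 and 16.1 in HCT116 and 54.0 and 72.8 in LOVO. Leukocyte markers summed to at most 2.01 FPKM in any library. Endothelial markers summed to 0.306 and 0.762 FPKM in HCT116 and to 1.13 and 7.84 in LOVO, where PECAM1 was at 0.0359 and 6.35. The 2 libraries are therefore called LOVO after their label alone, and every result is given for each line separately. The part of this difference in the results below was not tested.

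Lysosomes are acidic organelles in which hydrolases break down proteins, sugars and lipids, and they receive their cargo by endocytosis and by autophagy, in which a double membrane closes around cytoplasm and then fuses with the lysosome. Many lysosomal genes share a promoter element, the CLEAR element, built around an E-box and bound by the transcription factors TFEB, TFE3 and MITF. These factors are kept in the cytoplasm by mTORC1 when nutrients are plentiful and enter the nucleus on starvation or lysosomal stress, so that their activity depends on their location as well as on their level.

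As these factors act through the E-box, the promoters that carry its extended form are shown first. RefSeq promoter windows (GRCh38.p14, from 250 bases before to 50 after the start of the gene) were found for 30 of the 36 genes. The letters TCACGTG, on either strand, stood in the windows of 6 of these 30 genes (20.0%) against 4.49% of 27305 genes with a window. The longer GTCACGTG, which overlaps it, stood in 5 (16.7%, against 2.93%), and the plain E-box CACGTG in 7 (23.3%, against 8.77%), the 7th being CD63. A gene counted if any of its windows held the letters. The 30 genes had 48 windows, and the 27305 genes had 35116 and were not limited to those that passed the expression filter. The 2 sets are thus not alike, and the shares are descriptive. The 36 genes were also chosen by known function, and many lysosomal genes are known to share this element. A higher share than over all genes therefore follows from the choice and is no finding of these data. The stretches with TCACGTG run 5′ to 3′ on the strand of the gene, with the letters of TCACGTG and GTCACGTG on either strand in capitals. They belong to LAMP1 (chr13:113297005-113297245, plus strand), MCOLN1 (chr19:7522541-7522623, plus), CTSA (chr20:45891251-45891334, plus), CTSD (chr11:1763928-1764014, minus), GAA (chr17:80101463-80101580, plus) and NEU1 (chr6:31862902-31862988, minus).
LAMP1: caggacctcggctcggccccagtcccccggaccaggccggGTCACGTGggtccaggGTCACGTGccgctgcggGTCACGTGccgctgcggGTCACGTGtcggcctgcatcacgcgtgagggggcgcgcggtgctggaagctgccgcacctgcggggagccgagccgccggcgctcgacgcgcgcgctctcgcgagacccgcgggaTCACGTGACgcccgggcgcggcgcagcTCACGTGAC
MCOLN1: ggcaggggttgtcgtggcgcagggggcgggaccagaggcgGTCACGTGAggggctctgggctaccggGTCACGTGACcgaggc
CTSA: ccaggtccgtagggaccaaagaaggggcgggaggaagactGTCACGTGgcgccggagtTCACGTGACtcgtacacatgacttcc
CTSD: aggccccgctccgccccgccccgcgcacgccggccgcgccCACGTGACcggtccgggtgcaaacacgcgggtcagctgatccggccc
GAA: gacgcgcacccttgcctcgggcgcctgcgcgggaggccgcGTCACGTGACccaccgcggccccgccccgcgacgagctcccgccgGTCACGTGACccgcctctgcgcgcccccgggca
NEU1: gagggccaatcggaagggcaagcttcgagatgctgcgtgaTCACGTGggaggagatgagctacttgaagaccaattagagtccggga

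LAMP1 had the most copies of TCACGTG, 6 between 194 bases before and 6 after the RefSeq start. MCOLN1, CTSA and GAA had 2 copies each within 78 bases before the start, and CTSD had 1 within 47 bases. In NEU1 the single copy lay from 127 to 121 bases before the start and lacked the G of the longer form. A letter match is a description and not a measured binding site.

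Compared to adherent cells, the genes as a whole shifted little in the spheroids of either line. In HCT116 the median log2 fold change (the spheroid value of log2(FPKM + 1) minus the adherent one, so that changes of low genes are understated) was -0.04 over the 36 genes and -0.03 over all 14429 genes compared, and 17 of the 36 were above 0 (47.2%, against 45.8% of all genes). In LOVO the median was 0.09 against -0.06 over all genes, and 22 were above 0 (61.1%, against 45.5%). With values scaled as TPM, which moved the median of all genes in LOVO to 0.10, the median of the 36 genes there was 0.30 and 28 of them were above 0, against 55.4% of all genes. Fold changes stayed within 0.5 of 0 for 30 genes in HCT116 (83.3%, against 75.7% of all genes) and for 25 in LOVO (69.4%, against 54.9%). In these bulk libraries, fewer cells of a kind and less RNA per cell cannot be told apart.

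**Figure D1:**
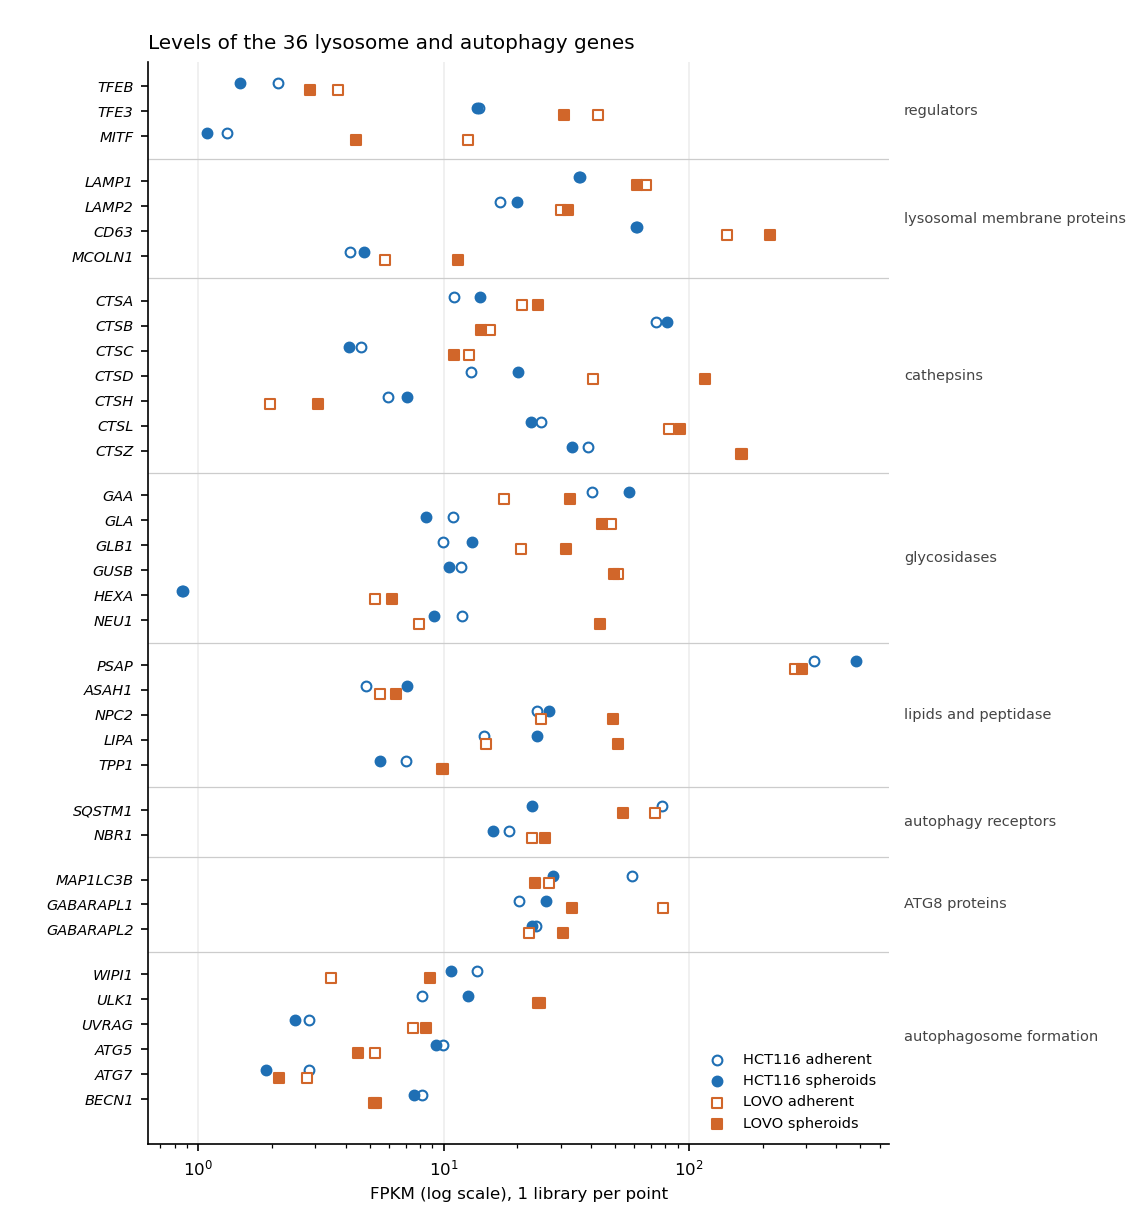
FPKM of the 36 genes in each of the 4 libraries on a log axis, grouped by role, with open symbols for adherent cells, filled ones for spheroids, circles for HCT116 and squares for LOVO, 1 library per point. The gap between the lines is often wider than the gap between spheroids and adherent cells of a line, as for TFE3 and CTSZ, whereas NEU1 is set apart by the LOVO spheroids at 43.3 FPKM.

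A log2 fold change of 2, the size used in the study's methods, was passed by 0 of the 36 genes in HCT116 in either direction (0.201% of all genes were above 2 and 0.506% below -2). In LOVO it was passed by 1, NEU1, upwards (1.81% of all genes) and by 0 downwards (0.943%). At a log2 fold change of 1, the HCT116 spheroids had 0 genes above it (2.19% of all genes) and 2 below -1, SQSTM1 and MAP1LC3B (5.56%, against 3.33%). The LOVO spheroids had 4 above 1, namely CTSD, NEU1, LIPA and WIPI1 (11.1%, against 8.57%), and 2 below -1, MITF and GABARAPL1 (5.56%, against 7.85%). These shares, from 8 values past 1 in all, lay near those of all genes. Fold changes were higher in both lines for 14 of the 36 genes, against 27.2% of all genes. They were lower in both for 11, against 35.1%, and went in opposite directions for the remaining 11. The share of all genes with opposite directions was not counted, so the remaining 11 are not shown to be unusual.

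**Figure D2:**
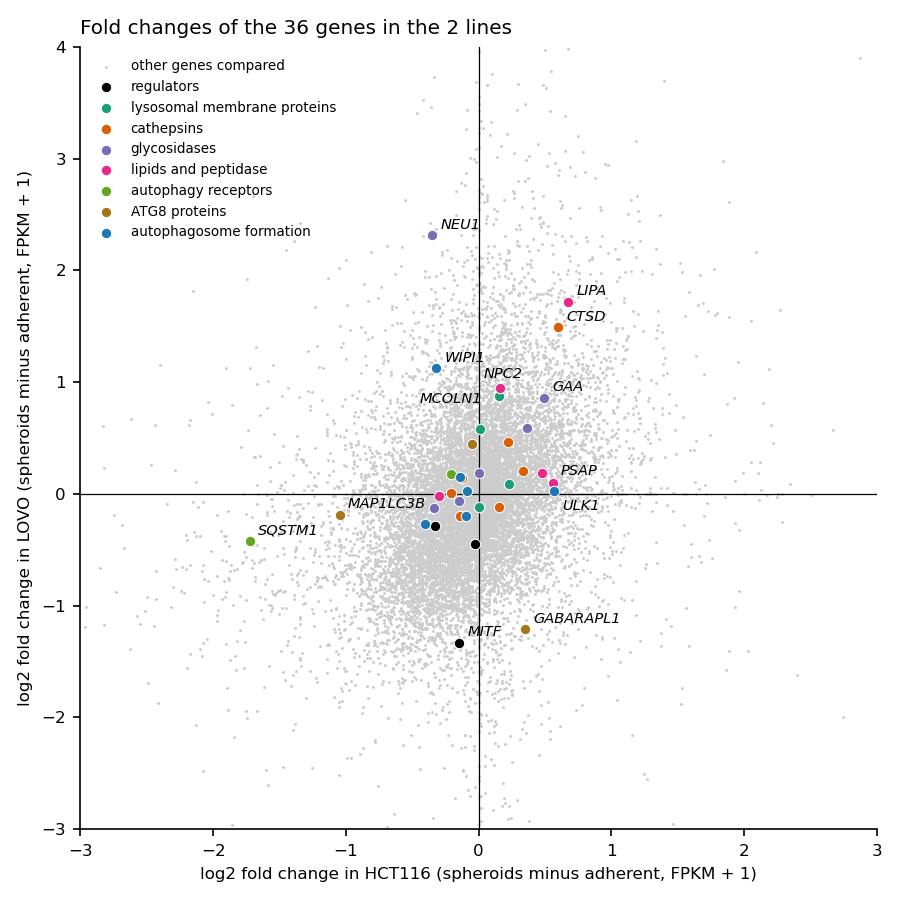
Log2 fold change of each gene in HCT116 (x axis) and in LOVO (y axis), spheroids minus adherent, from log2(FPKM + 1), with the 36 genes coloured by role over the other genes compared in grey (70 of these lie outside the axes). SQSTM1 and MAP1LC3B lie to the left, NEU1, LIPA and CTSD at the top, and MITF and GABARAPL1 at the bottom.

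The 3 transcription factors of the MiT/TFE family were lower in spheroids than in adherent cells of both lines, except that TFE3 in HCT116 changed sign when fold changes were centred on the median of all genes (-0.02 as deposited, 0.01 centred). TFEB, regarded as the main regulator of lysosomal genes, was at 2.10 FPKM in adherent HCT116 cells and 1.48 in their spheroids, a log2 fold change of -0.33, and at 3.69 and 2.84 FPKM in LOVO, a log2 fold change of -0.29. TFE3, its close relative, was at 13.9 and 13.7 FPKM in HCT116 and at 42.4 and 30.9 in LOVO, where the log2 fold change was -0.45. MITF, best known for its role in melanocytes, was at 1.31 and 1.09 FPKM in HCT116 (-0.15) and at 12.6 and 4.41 FPKM in LOVO (-1.33). MITF had 1625 reads in adherent LOVO cells and 637 in their spheroids, a log2 ratio without pseudocount of -1.52 with a counting interval from -1.65 to -1.38, the lowest value of the 36 genes in that line. The interval of the HCT116 ratio, -0.60 to 0.06, included 0. Of the melanocyte markers, PMEL was at 0.615 and 3.03 FPKM in LOVO, and higher in HCT116, at 3.45 and 7.31. TYR was at 0 in all 4 libraries, and MLANA and DCT were at most at 0.613 and 0.0631 FPKM.

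In every library TFE3 made up most of the family's mRNA, with 72.2% to 83.6% of the summed FPKM when TFEC, the fourth member, is counted in (TFEC was at most at 0.110 FPKM). MITF contributed 21.5% in LOVO adherent cells and 11.6% in LOVO spheroids, against 7.56% and 6.65% in HCT116. The summed level was 17.4 and 16.3 FPKM in HCT116 and 58.8 and 38.2 in LOVO, so the adherent LOVO library held the highest level of these factors.

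Among the membrane proteins, the spheroid values were at or above the adherent ones, with LAMP1 as the exception. LAMP1 and LAMP2, the heavily glycosylated proteins that line the inner face of the lysosomal membrane, stayed close to their adherent levels: LAMP1 was at 35.8 and 35.8 FPKM in HCT116 and at 66.6 and 61.3 in LOVO (log2 fold change -0.12, above 0 under TPM), and LAMP2 at 16.9 and 20.0 and at 30.2 and 32.2. CD63, a tetraspanin of late endosomes and lysosomes, was at 60.7 and 61.2 FPKM in HCT116 and at 143 and 214 in LOVO, a log2 fold change of 0.58. MCOLN1, the calcium channel TRPML1 of the lysosomal membrane, was at 4.16 and 4.72 FPKM in HCT116 (log2 fold change 0.15) and at 5.78 and 11.4 in LOVO (0.87). Its LOVO ratio without pseudocount was 0.98 and had a counting interval of 0.81 to 1.15, whereas the HCT116 interval, -0.04 to 0.41, included 0. In HCT116 the fold changes of LAMP1 and CD63 were 0.00 and 0.01 and changed sign with TMM-style scaling.

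The cathepsins, the proteases of the lysosome, were led by CTSD. CTSD, an aspartic protease, was at 13.0 FPKM in adherent HCT116 cells and 20.1 in their spheroids, and at 40.5 and 116 FPKM in LOVO, so both spheroid libraries lay above their adherent ones. The log2 fold changes were 0.60 and 1.49, and the LOVO ratio without pseudocount was 1.52 (counting interval 1.45 to 1.59), a 2.86-fold difference. At the CTSD locus (chromosome 11, 1752752 to 1764573, minus strand, GRCh38), 1304 of the 3126 exonic bases are shared with a second annotated gene on the same strand, AC068580.4, whose FPKM was 0.0348 in LOVO adherent cells and 0.548 in the spheroids. How reads in the shared bases were assigned is not given in the sources used here. The other 6 cathepsins had log2 fold changes between -0.21 and 0.34 in HCT116 and between -0.20 and 0.46 in LOVO. CTSH, an aminopeptidase, was the highest of these in LOVO (1.95 and 3.07 FPKM), with 206 and 364 reads. CTSA, the carboxypeptidase that stabilises GLB1 and NEU1 in a complex, was at 11.0 and 14.1 FPKM in HCT116 and at 20.9 and 24.2 in LOVO, thus higher in the spheroids of both lines. CTSC, a dipeptidyl peptidase, was lower in both (4.62 and 4.10 FPKM, then 12.7 and 11.0). CTSB, CTSL and CTSZ, all cysteine proteases, had log2 fold changes of opposite sign in the lines, 0.16, -0.12 and -0.21 in HCT116 and -0.12, 0.14 and 0.01 in LOVO, where that of CTSB was above 0 under TPM.

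What set the lines apart among cathepsins was the mix. CTSB supplied 42.7% of the summed cathepsin FPKM in adherent HCT116 cells and 44.6% in their spheroids, but 4.58% and 3.35% in LOVO. CTSZ supplied 48.4% and 38.8% in LOVO, against 22.6% and 18.3% in HCT116. CTSD supplied 7.57% in adherent cells and 11.0% in spheroids of HCT116, and 12.0% and 27.3% in LOVO. The sums were 171.5 and 183.5 FPKM in HCT116 and 339 and 425 in LOVO.

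**Figure D3:**
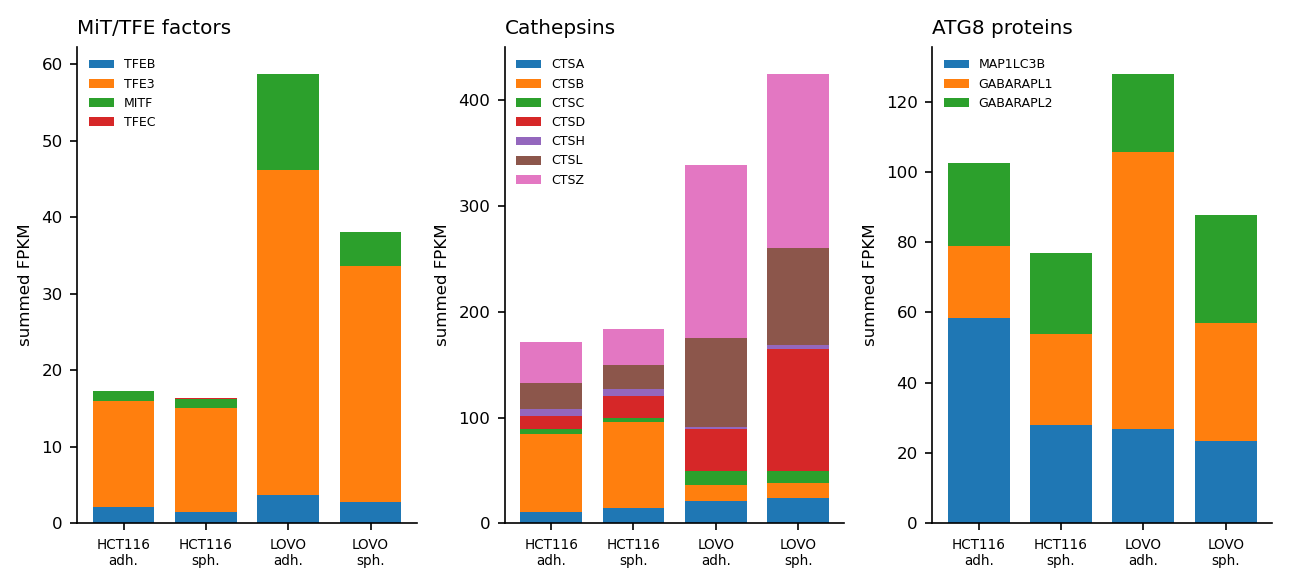
Summed FPKM of the MiT/TFE factors (TFEC included), of the 7 cathepsins and of the 3 ATG8 proteins in adherent cells (adh.) and spheroids (sph.) of each line, stacked by gene, with 1 library per bar and no error. TFE3 is the largest block of the first panel in all 4 libraries, CTSB gives way to CTSZ and CTSL between HCT116 and LOVO, and CTSD is at 116 FPKM in LOVO spheroids.

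Of the glycosidases, which trim sugars from glycoproteins, glycolipids and glycogen, NEU1 differed most. NEU1, the lysosomal sialidase, was at 11.9 FPKM in HCT116 adherent cells and 9.12 in their spheroids, but at 7.90 and 43.3 in the same order in LOVO. The LOVO spheroid library thus stood alone above the other 3. These values rest on 1170 and 739 reads in HCT116 and on 683 and 4201 in LOVO. The log2 fold change was -0.35 in HCT116 and 2.32 in LOVO, and the ratio in LOVO without pseudocount was 2.46 (counting interval 2.34 to 2.57), a 5.48-fold difference at percentile 98.9 of the fold changes of all genes compared. None of the exonic bases of NEU1 is shared with another annotated gene. GAA, the acid alpha-glucosidase that degrades glycogen, was higher in the spheroids of both lines, at 40.2 and 57.0 FPKM in HCT116 (log2 fold change 0.49) and at 17.6 and 32.8 FPKM in LOVO (0.86). GLB1, the beta-galactosidase measured at acid pH in senescence assays, was also higher in both, at 9.93 and 13.1 FPKM and at 20.6 and 31.5 FPKM, with log2 fold changes of 0.36 and 0.59. GLA, the alpha-galactosidase, and GUSB, the beta-glucuronidase, were lower in both lines, with log2 fold changes of -0.34 and -0.15 in HCT116 and -0.13 and -0.06 in LOVO, and in LOVO both changed sign under TPM. HEXA, a subunit of beta-hexosaminidase, was near its adherent level, at 0.856 and 0.864 FPKM in HCT116 and at 5.27 and 6.15 FPKM in LOVO.

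Of the proteins that handle lipids, all 4 (PSAP, ASAH1, NPC2 and LIPA) were higher in the spheroids than in the adherent cells of both lines. LIPA, the acid lipase that frees cholesterol and fatty acids from their esters, was at 14.7 FPKM in adherent HCT116 cells and 23.9 in their spheroids, and at 14.8 and 51.2 FPKM in LOVO. The adherent levels were thus alike in the lines (counting interval of the LOVO to HCT116 log2 ratio from -0.09 to 0.13) and both spheroid libraries lay above them. Its log2 fold changes were 0.67, the highest of the 36 genes in HCT116, and 1.72, and the ratios without pseudocount had counting intervals from 0.61 to 0.81 and from 1.70 to 1.88. NPC2, which hands cholesterol on inside the lysosome, was at 24.0 and 27.0 FPKM in HCT116 (0.16) and at 25.0 and 49.2 FPKM in LOVO (0.95). PSAP, the precursor of the saposins that activate sphingolipid hydrolases, was the most abundant of the 36 mRNAs, at 324 and 478 FPKM in HCT116 (0.56) and at 271 and 290 FPKM in LOVO (0.10). ASAH1, the acid ceramidase, was at 4.82 and 7.09 FPKM in HCT116 (0.47) and at 5.50 and 6.38 FPKM in LOVO (0.18). Both therefore had the larger value in HCT116, unlike NPC2 and LIPA. TPP1, a peptidase, was at 7.02 and 5.52 FPKM in HCT116 and at 9.96 and 9.82 FPKM in LOVO, where the sign of its log2 fold change of -0.02 turned with TPM, with TMM-style scaling and with centring.

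**Figure D4:**
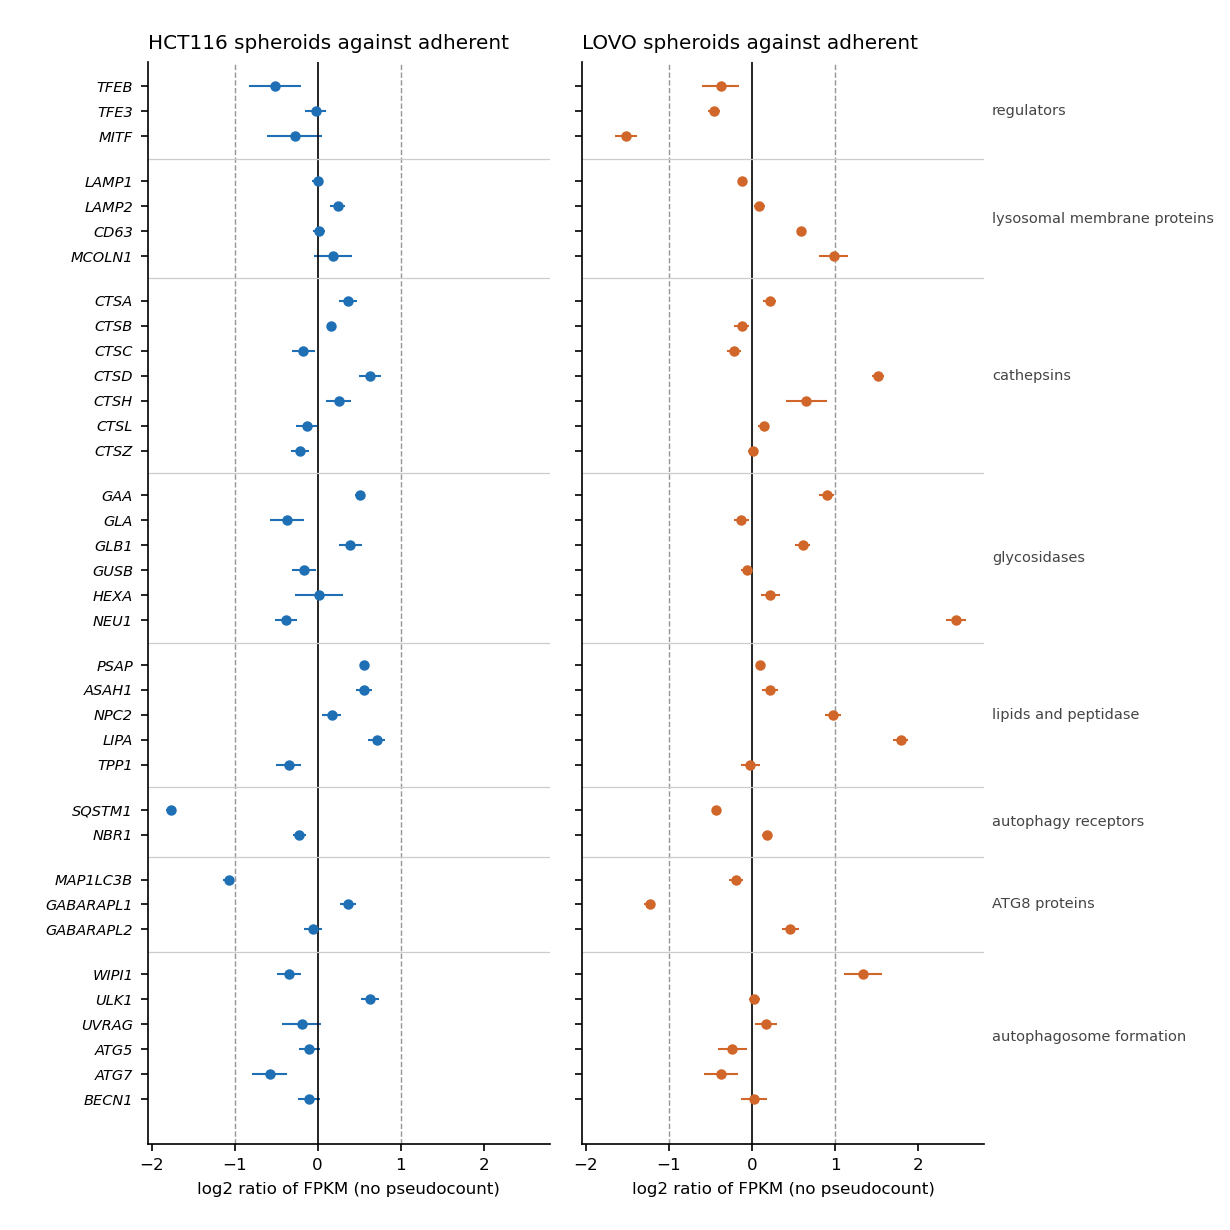
Log2 ratio of spheroid to adherent FPKM of each gene, without pseudocount, in HCT116 (left) and LOVO (right), with bars for the 95% exact counting interval of 2 libraries, which holds no variation between cultures, and dashed lines at -1 and 1. SQSTM1 and MAP1LC3B lie below -1 in HCT116, MITF and GABARAPL1 in LOVO, and NEU1, LIPA, CTSD and WIPI1 lie above 1 in LOVO.

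The receptors and ATG8 proteins, which tie cargo to the growing autophagosome, held the lowest values in HCT116. SQSTM1 (p62), which binds ubiquitinated cargo, was at 78.1 FPKM in adherent HCT116 cells and 22.9 in their spheroids, and at 72.7 and 54.1 FPKM in LOVO. The HCT116 spheroid library thus stood below the other 3. The log2 fold change was -1.73 in HCT116, at percentile 0.880 of all genes compared, and -0.42 in LOVO. Without pseudocount the HCT116 ratio was -1.77, with a counting interval from -1.83 to -1.71, a 3.41-fold difference. On chromosome 5, 1687 of the 7654 exonic bases of SQSTM1 (179806398 to 179838078, plus strand) lie over exons of MRNIP and MGAT4B on the opposite strand, and whether reads were counted by strand is not given in the sources used here. The log2 fold changes of MRNIP and MGAT4B in HCT116 were 0.25 and 0.16. NBR1, a receptor for the same kind of cargo, was at 18.4 and 15.8 FPKM in HCT116 (-0.21) and at 22.9 and 26.0 in LOVO (0.17).

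ATG8 proteins are ubiquitin-like proteins that are joined to the lipids of the autophagosome membrane and bind the receptors. MAP1LC3B (LC3B) was at 58.5 FPKM in adherent HCT116 cells and 27.8 in their spheroids, and at 26.9 and 23.6 FPKM in LOVO. Here the adherent HCT116 library stood above the other 3, and the log2 fold changes were -1.05 (counting interval of the ratio without pseudocount from -1.14 to -1.01) and -0.19, the latter turning to 0.01 under TPM. Of the 50-base stretches of its transcripts, 4.82% also occur in the paralogue MAP1LC3B2, which was at 7.55 and 4.35 FPKM in HCT116 and at 3.12 and 3.23 in LOVO. GABARAPL1 had another pattern, at 20.3 and 26.1 FPKM in HCT116 (0.35) and at 78.7 and 33.5 FPKM in LOVO (-1.21, counting interval of the ratio without pseudocount from -1.30 to -1.17). For GABARAPL1, then, the adherent LOVO library stood above the other 3. GABARAPL2 was at 23.8 and 22.9 FPKM in HCT116 (-0.05) and at 22.3 and 30.7 FPKM in LOVO (0.44). The leading ATG8 mRNA of the 3 was MAP1LC3B in both HCT116 libraries (57.1% and 36.2% of their summed FPKM) and GABARAPL1 in both LOVO libraries (61.5% and 38.2%). In each line the ATG8 mRNA that led in adherent cells was the one with a log2 fold change below -1, and the sum of the 3 was lower in spheroids than in adherent cells, at 102.6 and 76.8 FPKM in HCT116 and at 127.8 and 87.7 FPKM in LOVO.

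Genes that start and extend the autophagosome were mostly near their adherent levels. WIPI1, which binds phosphoinositides on the forming membrane, was the exception in LOVO, at 3.48 FPKM in adherent cells and 8.78 in spheroids, whereas in HCT116 it was at 13.6 and 10.7 FPKM. The adherent LOVO library was thus the low one of the 4, and the log2 fold changes were 1.13 in LOVO, with a counting interval of the ratio without pseudocount of 1.34 from 1.11 to 1.57, and -0.32 in HCT116. Of the 3402 exonic bases of WIPI1, 955 lie over exons of ARSG or AC007780.1 on the opposite strand, ARSG being at 3.28 and 1.88 FPKM in LOVO. ULK1, the kinase that starts autophagy under starvation, was at 8.16 and 12.6 FPKM in HCT116 (0.57) and at 24.4 and 24.8 FPKM in LOVO (0.03). UVRAG and BECN1 (Beclin 1), subunits of the phosphatidylinositol 3-kinase complexes, had log2 values of -0.14 and -0.09 for the HCT116 comparison and of 0.15 and 0.02 for that of LOVO. ATG5 and ATG7, which act in the conjugation of ATG8 proteins, had lower values in spheroids than in adherent cells of each line, ATG5 at 9.94 and 9.27 and at 5.26 and 4.46 FPKM, and ATG7 at 2.83 and 1.89 and at 2.77 and 2.14 FPKM. The counting interval of the ratio excluded 0 for ATG7 in both lines and for ATG5 in LOVO alone.

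Set beside the promoter letters, the median log2 fold changes of the 6 genes with TCACGTG came to 0.24 for HCT116 and 0.87 for LOVO, against -0.13 and -0.01 for the 24 genes with a window and without these letters. In LOVO 5 of the 6 and 12 of the 24 were above 0, against 45.5% of all genes compared. In HCT116 it was 5 of the 6 and 7 of the 24, against 45.8%. The 6 are lysosomal membrane proteins, cathepsins and glycosidases. The 24 also hold the regulators, the autophagy receptors, the ATG8 proteins and genes that start the autophagosome. The letters and the role of a gene therefore cannot be told apart here. The 6 values spread widely, from -0.12 (LAMP1, with the most copies in its printed stretch) to 2.32 (NEU1, with 1 copy) in LOVO, and from -0.35 (NEU1) to 0.60 (CTSD) in HCT116. LIPA and WIPI1, both above 1 in LOVO, and SQSTM1 had none of these letters in their windows. These medians describe a few genes and carry no test.

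Before spheroid culture the lines already differed in these genes. In adherent cells the level was higher in LOVO than in HCT116 by more than 1 on the log2(FPKM + 1) scale for 13 of the 36 genes (36.1%, against 17.4% of all genes compared), namely TFE3, MITF, CD63, CTSC, CTSD, CTSL, CTSZ, GLA, GUSB, HEXA, GABARAPL1, ULK1 and UVRAG. It was lower by more than 1 for 5 (13.9%, against 16.4%), namely CTSB, CTSH, GAA, MAP1LC3B and WIPI1. The median difference was 0.52 over the 36 genes and 0.08 over all genes. On this scale MITF differed most upwards, by 2.56, followed by CTSZ (2.05), GUSB (2.05) and GLA (2.04), and CTSB (-2.17) and WIPI1 (-1.71) differed most downwards. As ratios of FPKM without pseudocount these were 9.62-fold for MITF, 4.23-fold for CTSZ, 4.72-fold lower for CTSB and 3.93-fold lower for WIPI1, and HEXA, low in HCT116 at 0.856 FPKM, came to 6.15-fold. In spheroids the median difference was 0.80, against 0.04 over all genes. As 1 library stands for each line, these are differences between libraries, and the LOVO ones are those without EPCAM, CDH1 and CDX2 levels of colon epithelium.

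The wider pathways were read from 9 lists of 199 genes that hold none of the 36, of which 183 passed the same filter. The other lysosomal hydrolases had their higher median in LOVO. Over 34 genes the median log2 fold change was 0.08 in HCT116 and 0.62 in LOVO, where 27 were above 0 and 7 above 1 (20.6%, against 8.57% of all genes), namely GGH, LGMN, FUCA1, CTSF, SCPEP1, ARSA and IDUA. IDUA, which degrades glycosaminoglycans, was at 3.95 and 8.72 FPKM in HCT116 and at 3.72 and 11.0 in LOVO, and ARSA, the sulfatase of sulfatides, at 5.69 and 12.1 and at 9.43 and 24.6, so in either line both had their higher value in spheroids. Of 23 other lysosomal membrane proteins and transporters, 6 were above 1 in LOVO (26.1%, against 8.57% of all genes). Below -1 in LOVO was 1 (against 7.85% of all genes), and the medians were 0.09 in HCT116 and 0.25 in LOVO. The LOVO median of this list was 0.39 with a pseudocount of 0.1 or 0.01, 0.45 with a mean FPKM cut-off of 5 and 0.53 under TPM. LAMP3, an inducible relative of LAMP1, had the largest value, at 5.12 and 3.85 FPKM in HCT116 (-0.33) and at 2.88 and 50.5 in LOVO (3.73). CLCN6, a chloride and proton exchanger of late endosomes, was higher in both spheroids, at 2.33 and 4.54 and at 2.61 and 10.0 FPKM.

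Genes that acidify lysosomes and deliver their enzymes had medians near 0 in both lines. Over 18 subunits and partners of the vacuolar ATPase, the proton pump of the lysosome, the medians were 0.03 in HCT116 and -0.09 in LOVO, and 1, ATP6V1B2, was below -1 in LOVO (9.86 and 4.08 FPKM). Over 22 genes of enzyme sorting, such as the mannose 6-phosphate route, they were -0.02 and -0.08, with AP3S1 below -1 in HCT116 (160.0 and 72.5 FPKM) and SORL1 below -1 in LOVO (4.73 and 0.657 FPKM). Over 18 genes of the fusion of autophagosomes with lysosomes they were 0.00 and 0.02, and 0 were past 1 in either line. Under TPM the LOVO medians of these 3 lists were 0.11, 0.12 and 0.22, against 0.10 over all genes.

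The remaining autophagy genes were spread around 0 as well, with list medians of -0.17 to 0.02 in HCT116 and -0.22 to 0.08 in LOVO. Of 19 further genes of autophagy initiation and nucleation, VMP1, TMEM41B and ZFYVE1 were above 1 in LOVO (15.8%, against 8.57% of all genes), and 0 were past 1 in HCT116. Of 10 further ATG8 and conjugation genes, ATG12 was below -1 in HCT116 (51.4 and 24.5 FPKM), and ATG4A and ATG16L2 were above 1 in LOVO (20.0%, against 8.57%). Among 16 other autophagy receptors, CALCOCO1 was above 1 in both lines, at 6.68 and 16.2 FPKM in HCT116 (1.16) and at 5.47 and 19.1 in LOVO (1.64), while PHB2, a mitochondrial protein that is a receptor in mitophagy, was at 118 and 65.2 FPKM (-0.84) and at 98.4 and 41.8 FPKM (-1.22). The list of mTORC1 and folliculin control of the MiT/TFE factors holds parts of mTORC1 together with inhibitors of it. Its median therefore has no single direction of effect. Over its 23 genes the medians were -0.07 in HCT116 and -0.14 in LOVO. Of these, SESN2, a stress-induced inhibitor of mTORC1, was below -1 in both lines, at 38.8 and 12.3 FPKM in HCT116 (-1.59) and at 52.3 and 7.74 FPKM in LOVO (-2.61). The 36 genes themselves and these lists were chosen by function, and a list's median is a description without a test.

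**Figure D5:**
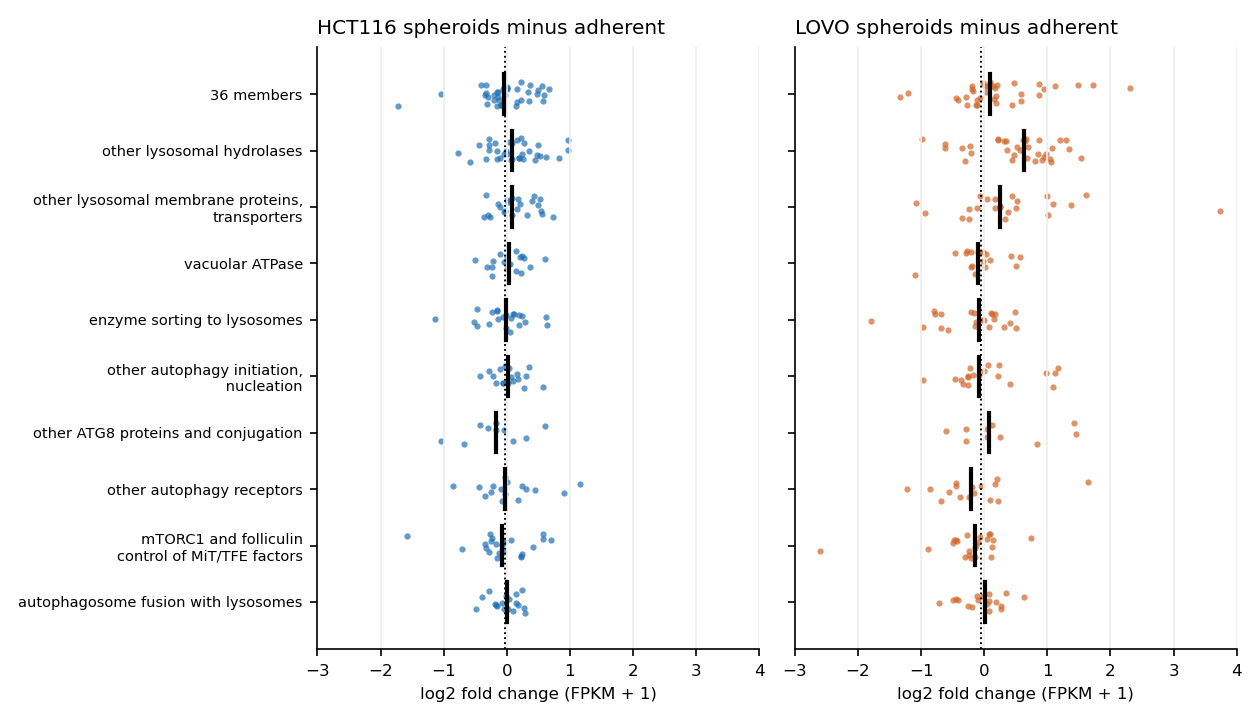
Log2 fold changes (spheroids minus adherent, from log2(FPKM + 1)) of the 36 genes and of the genes of 9 further lists in HCT116 (left) and LOVO (right), 1 point per gene, with a black bar at each list's median and a dotted line at the median of all genes compared. In LOVO the bar of the other lysosomal hydrolases lies at 0.62, to the right of the other lists, and the lone point at 3.73 is LAMP3.

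A limma fit over all 14429 genes used both lines at once, with cell line as a covariate and 1 residual degree of freedom. After Benjamini-Hochberg adjustment in this limma fit, p was under 0.05 for 0 of the 36 genes (0.0% of all genes), and the lowest adjusted value among them was 0.462. Unadjusted p-values under 0.05 were found for 4 of the 36, SQSTM1, CTSD, GAA and LIPA, against 10.7% of all genes. SQSTM1 was no longer among them with TPM, TMM-style scaling or a pseudocount of 0.01, GAA was not without trend or with a mean FPKM cut-off of 5, and 0 of the 36 were left without the covariate. Averaged over both lines in this fit, the log2 fold change was -1.07 ± 0.39 (SE) for SQSTM1, 1.05 ± 0.32 for CTSD, 0.68 ± 0.26 for GAA and 1.20 ± 0.34 for LIPA. The residual of this fit comes from the difference between the lines, and limma draws it towards that of genes of similar level. A low p-value therefore depends on a large average change as well as on lines that agree. SQSTM1 was among the 4 although its lines differed in size (-1.73 and -0.42). TFEB was not, with a limma p of 0.29, although its lines were close (-0.33 and -0.29). That these 4 genes share a direction in both lines is thus favoured by how they were picked. The fit cannot be made without the LOVO libraries, as no residual degree of freedom would be left.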

How the data were processed

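RNA was taken from adherent cells and spheroids of HCT116 and LOVO (1 library each, prepared with a SMARTER mRNA-seq kit per the labels). The authors deposited FPKM values and gene lengths for 58735 genes. The aligner, the counter and the strand setting are not given in the sources used here. Gene IDs, coordinates and lengths equalled those of GENCODE 29 (GRCh38), although the genome build field of the labels names the mouse builds GRCm38 and mm10. FPKM times gene length gave whole multiples of a step for 100% of values (tolerance 0.01), and the reads recovered in this way were used for depths and counting intervals only. A count of 0 allows up to 3 reads, or 0.147 to 0.179 FPKM for a gene of 1 kb.

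Fold changes were computed as spheroids minus adherent cells on log2(FPKM + 1) over genes whose mean FPKM was 1 or more. Both lines were fitted together with limma 3.58.1 (R 4.3.3), with trend and Benjamini-Hochberg adjustment over all genes. Other steps used Python 3.11.15. The scripts were tested on simulated data. Alternatives were other pseudocounts, filters and scalings, as given in the closing section. Full values are given for the regulators, for genes past 1, and for the 8 with the largest size in each line. From each pathway list the 2 genes with the largest mean size were named, with those past 1 or 2. The genes, lists and tests were chosen with earlier results of these data known. Promoter windows of 6 genes (ASAH1, UVRAG, CTSB, PSAP, HEXA and LAMP2) were not analysed here. No library was left out.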

Additional observations from a re-analysis of the deposited data

Results flagged for a closer look

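In 6 genes the spheroids of one line lay above their adherent cells and those of the other line below, with the counting interval excluding 0 in both. The difference between the lines was not tested, as each line has 1 library per condition. How many of all genes meet the same rule was not counted, so these 6 genes are not shown to be unusual. The intervals also leave out variation between cultures. The log2 fold change in LOVO minus that in HCT116 was 2.67 for NEU1 (2.32 against -0.35), 1.45 for WIPI1 (1.13 against -0.32) and -1.56 for GABARAPL1 (-1.21 against 0.35). It was 0.38 for NBR1 (0.17 against -0.21), 0.26 for CTSL (0.14 against -0.12) and -0.27 for CTSB (-0.12 against 0.16, the former turning to 0.08 under TPM).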

How the results depend on the processing

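Values were recomputed with pseudocounts of 0.1 and 0.01, without a filter, with a mean FPKM cut-off of 5, with protein-coding genes only, and with TPM, TMM-style and median-centred scaling. The limma fit was also run without its covariate and without trend. Of 132 alternative values that answer a comparison, 129 stayed within the limit set for them and 3 moved past it. The rule for these values looked at size only and not at direction. Under TPM the LOVO median of the 36 genes was 0.296 and 7 genes were above 1 there in place of 4, MCOLN1, GAA and NPC2 being added, against 15.7% of all genes. With the cut-off of 5, which keeps 31 of the 36 genes, 1 in place of 2 was below -1 in LOVO. The 8 values past 1 kept their sign in each of 63 alternative values. Over these, NEU1 in LOVO ranged from 2.32 to 2.61, LIPA from 1.72 to 1.97, CTSD from 1.49 to 1.72, WIPI1 from 1.13 to 1.46, MITF from -1.52 to -1.26 and GABARAPL1 from -1.23 to -1.02, and in HCT116 SQSTM1 ranged from -1.77 to -1.69 and MAP1LC3B from -1.08 to -1.01. Of 710 further values of single genes and lists, none of which rests on a test, 58 moved by more than the limit set for them and 20 had the opposite sign, 12 of single genes and 8 of list medians. The 12 belong to CD63, HEXA, LAMP1 and TFE3 in HCT116 and to CTSB, GLA, GUSB, LAMP1, MAP1LC3B and TPP1 in LOVO, each at most 0.19 in size as deposited. The 8 arose from scaling, among them the LOVO medians of the vacuolar ATPase, enzyme sorting, autophagy initiation (-0.08, 0.12 under TPM) and mTORC1 (-0.14, 0.03 under TPM) lists. The limma fit gave 0 genes past an adjusted p of 0.05 in all 10 alternatives, with 163 to 2431 genes under an unadjusted p of 0.05. The 163 came from the fit without cell line. The limma fit pairs the libraries by cell line through its covariate. The labels give no replicate numbers to pair by, and no library could be left out with 1 per condition.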
